A study of Mus musculus with 9 samples.

Results

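The comparison set injured tibialis anterior muscle of old mice without P311 against that of young wild-type mice. The tibialis anterior is a muscle of the shin made mostly of fast fibres. Its members are the 3 libraries of old P311-/- mice and the 3 libraries of young wild-type mice, aged 4 to 6 months, which is 6 of the 9 poly(A) RNA libraries in the series. The other 3 libraries came from old wild-type mice of 24 months and are given as a reference beside many of the results. For the P311-/- mice the labels say only "old". Age and genotype differ together between the groups compared, so what either contributes cannot be told apart within this comparison. The sources used here do not give how the muscle was injured, the days of recovery, the hour of dissection, the sex or the strain. Libraries are numbered within a group, and nothing says whether each came from its own animal, so p-values measure the spread between libraries, which may be technical.

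P311 is the protein of the gene Nrep, a small, mostly disordered protein of the cytoplasm known for raising the translation of the transforming growth factor beta (TGF-beta) proteins and for its presence in regenerating nerve and muscle and in wound fibroblasts. TGF-beta drives fibroblasts to make collagen and holds back the differentiation of muscle precursors. After injury, immune cells clear dead fibres, fibro-adipogenic progenitors lay down a provisional matrix, and satellite cells, the stem cells of muscle, divide and fuse into new fibres. Repair by this route is slower and more fibrotic in old muscle.

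The measured quantity was FPKM, fragments scaled to the length of the gene and to the size of the library, for 54532 genes. Of these, 14233 genes had at least 0.5 FPKM and at least 10 reads in at least 3 libraries and were tested. Reads assigned to genes ranged from 14222204 to 18249081 per young library and from 20475248 to 31910890 per P311-/- library. Mitochondrial genes held 8.79% to 10.7% of reads in the young libraries and 9.47% to 14.1% in the P311-/- libraries. Summed FPKM of 6 mature fibre genes was 35710 to 38540 in the young and 39540 to 53680 in the P311-/- libraries, so fibre genes were abundant in every library. No marker of the 14 cell types examined was called between the groups, where 0.400% of all genes tested were called. Summed markers did not overlap for mast cells, at 28.05 to 48.41 FPKM in young and 55.95 to 95.19 FPKM in P311-/- libraries. Nor did they for tenocytes, at 17.25 to 30.29 and 12.82 to 16.46 FPKM. Apart from mature fibres, the sums of the other types overlapped.

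P311-/- replicate 1 stood apart from the other 2 libraries of its group. Its Euclidean distance on log2(FPKM + 0.1) over all genes tested was 86.0 and 81.9 to P311-/- replicates 2 and 3, against 64.85 to 74.17 to the 3 young libraries. Replicates 2 and 3 were 66.71 from each other and 85.15 to 99.0 from the young libraries. Replicate 1 was the library of the highest summed FPKM in its group for collagen chains, with 1291 against 584.9 and 735.9, and for macrophage and monocyte markers, with 1799 against 814.0 and 1013. It had the lowest summed FPKM for clock genes, with 186.6 against 304.7 and 279.1. Counts of calls in the gene lists and most of their medians are therefore also given without it. It was singled out for lying near the young libraries, so a fit without it favours wider differences and more calls. Counts from that fit show how far a result hangs on this library and are no further support for it. Leaving out P311-/- replicate 2 or 3 instead gave 10 or 8 calls over all genes.

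Nrep itself had 86.3, 72.6 and 63.9 FPKM in the young libraries and 14.8, 6.37 and 9.72 FPKM in the P311-/- libraries. All 3 P311-/- libraries lay far below every young library, and old wild-type muscle, at 75.6 ± 6.51 FPKM (SD, n = 3), was at the young level. Nrep fell by 2.91 ± 0.26 (SE) on the log2 scale against young muscle (limma adjusted p = 0.00404), a 7.21-fold lower mean, so the libraries matched their genotype labels. With old and young wild type at like levels, Nrep cannot check the age labels. The sources used here do not say which part of Nrep was deleted, and reads on the rest of the gene were still counted. Of 27 genes in the table within 1 Mb of Nrep, 12 were tested and none was called, where 0.400% of all genes tested were called. Their log2 differences ran from -1.26 to 0.67. Without P311-/- replicate 1, 3 of the 12 were called, in a fit that called 10.3% of all genes higher and 9.22% lower. So few genes cannot show that the region was unaffected.

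Of the 14233 genes tested, 57 were called at a limma adjusted p under 0.05, which is 0.400% of them. In the P311-/- libraries 22 genes were higher (0.155%) and 35 were lower (0.246%). The change was at least 2-fold in 43 of the 57, and 43 were protein-coding. The 3 P311-/- values lay outside the range of the 3 young values in all 57. Over all genes tested, the P311-/- values lay wholly above the young values in 11.6% and wholly below them in 12.0%, and 3051 genes had an unadjusted p under 0.05. The median log2 difference over all genes was 0.01. In the fit without P311-/- replicate 1, 2785 genes were called, 1473 higher (10.3%) and 1312 lower (9.22%), among them all 57. Counts of list members called, or without overlap, are to be set beside these shares of all genes.

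**Figure D1:**
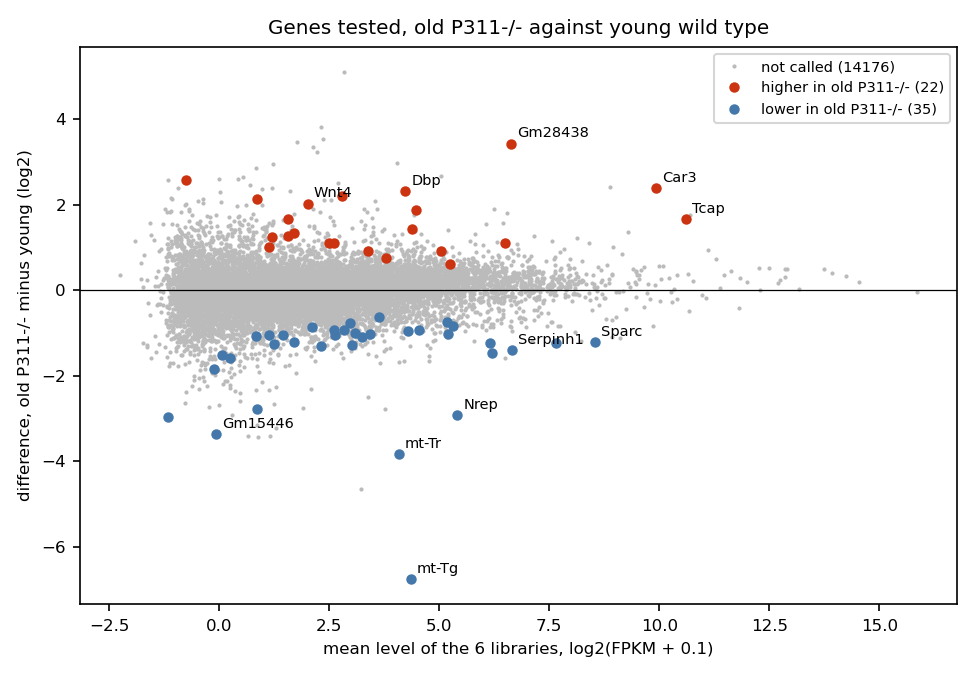
Fitted log2 difference of old P311-/- minus young wild type (y axis) against the mean level of the 6 libraries on log2(FPKM + 0.1) (x axis), 1 point for each of 14233 genes tested. Red points are the 22 genes called higher and blue points the 35 called lower; Car3 and Tcap are abundant genes above the cloud, and Nrep and mt-Tg lie far below it.

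Most calls stood close to the threshold: 39 of the 57 had an adjusted p above 0.03. When each of the 9 libraries was left out in turn, 4 genes were called in all 9 fits: Car3, Nrep, Gm15446 and Tmem181b-ps. Btaf1, Gm28438 and mt-Tg were called in 8 of 9. In 25 genes the call held in 1 of the 9 fits, the one without P311-/- replicate 1. Among these were Tcap, Cry2, Wnt4, Sparc, Adamts20 and Antxr1. Serpinh1 and Col8a2 were called in 2 of the 9 fits. The highest adjusted p of any of the 57 in these fits was 0.187, and for 43 of them the highest came without P311-/- replicate 3. The log2 differences of the 57 kept their direction throughout. P311-/- replicate 1 was the nearest of its group to the young mean in 37 of the 57 genes.

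**Figure D2:**
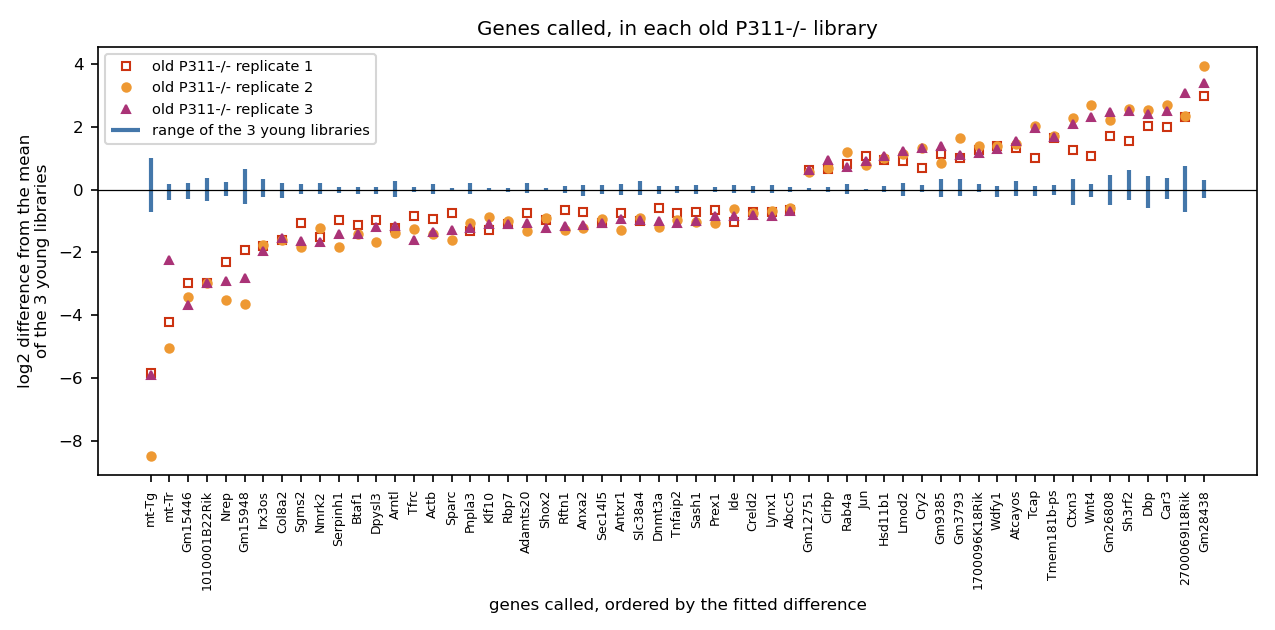
Log2 difference of each old P311-/- library from the mean of the 3 young libraries for the 57 genes called, ordered by the fitted difference (x axis); blue bars span the 3 young libraries. In every gene all 3 P311-/- libraries lie outside the blue bar, and replicate 1 (open squares) is often the closest to it.

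Tcap and Car3 were the most abundant genes called higher. Car3, carbonic anhydrase 3, a cytosolic enzyme of slow and oxidative fibres (chr3:14863512-14872523, plus strand, GRCm38), had 396, 245 and 288 FPKM in the young libraries. In the P311-/- libraries it had 1198, 1946 and 1706 FPKM. All 3 P311-/- libraries were far above the highest young library, and the old wild-type mean of 744 ± 56.7 FPKM (SD, n = 3) lay between the groups. The mean was 5.22-fold higher in P311-/- muscle (log2 2.38 ± 0.22 SE, limma adjusted p = 0.00423). In the same fit Car3 differed by 1.29 between old wild type and young (adjusted p = 0.0307) and by 1.09 between P311-/- and old wild type (adjusted p = 0.215), comparisons that share their libraries.

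Tcap encodes telethonin, which ties the ends of titin together at the Z disc. It had 787, 763 and 624 FPKM in the young libraries and 1442, 2924 and 2793 FPKM in the P311-/- libraries. The groups did not overlap, P311-/- replicate 1 was the lowest of its group, and old wild-type muscle had 1600 ± 47.2 FPKM (SD, n = 3). Tcap rose 3.29-fold (log2 1.66 ± 0.25 SE, adjusted p = 0.0373). Lmod2, leiomodin 2, which lengthens the actin filaments of the sarcomere, rose 2.13-fold, from 57.7 ± 8.05 to 123 ± 14.5 FPKM (SD, n = 3 each, adjusted p = 0.0437), with old wild type at 77.0 FPKM.

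**Figure D3:**
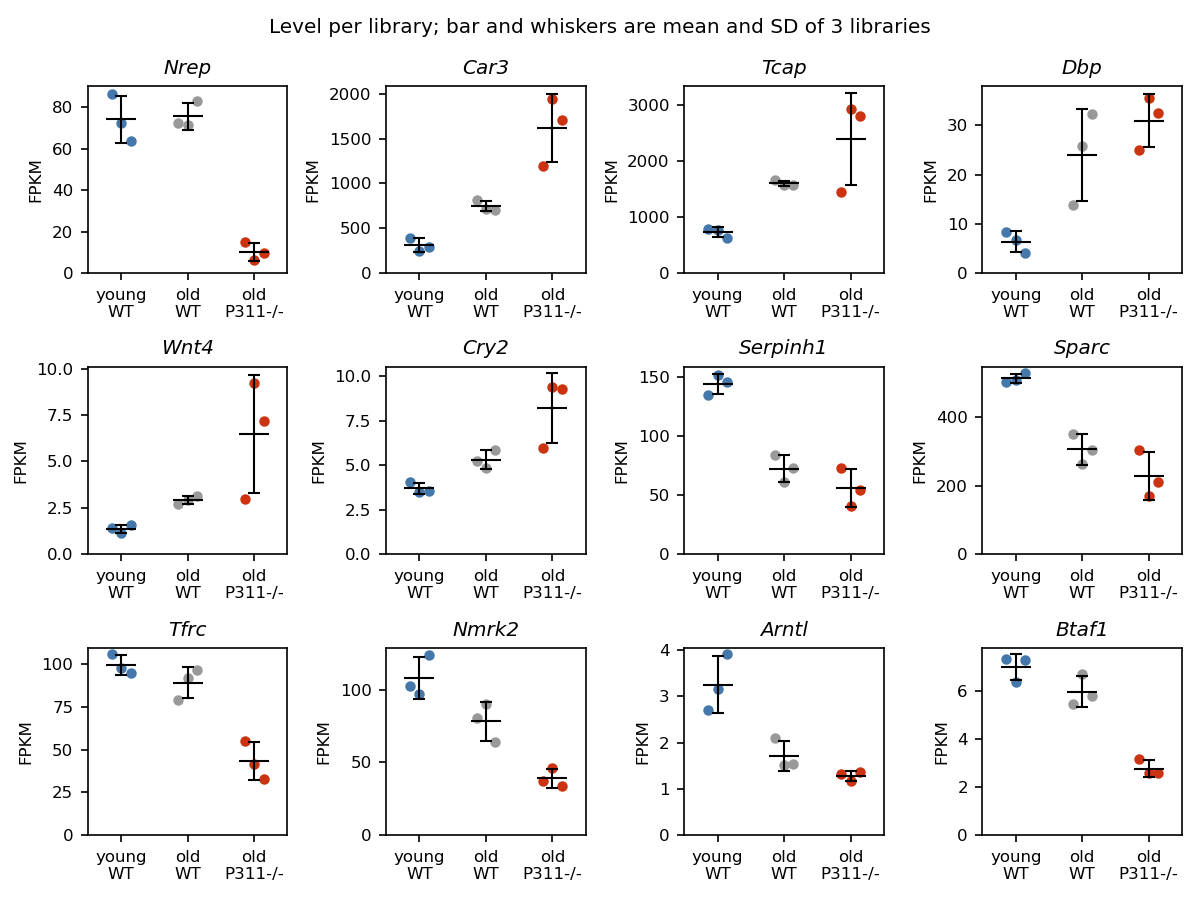
FPKM of 12 genes in each library (points, y axis from 0) by group (x axis: young and old wild type, old P311-/-), with the mean and SD of 3 libraries. In Car3 and Tcap the P311-/- points lie above all young points with old wild type between the means, and in Nrep, Tfrc, Nmrk2 and Btaf1 they lie below both wild-type groups.

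Nmrk2, the muscle-enriched nicotinamide riboside kinase that makes a precursor of NAD, fell. Its values were 102, 96.9 and 124 FPKM in the young libraries and 37.5, 46.3 and 33.6 FPKM in the P311-/- libraries. No P311-/- library came near the lowest young one, and old wild-type muscle stood at 78.1 ± 13.3 FPKM (SD, n = 3). Nmrk2 fell by 1.46 ± 0.18 (SE) on the log2 scale (adjusted p = 0.0155). It lies at chr10:81198170-81202051 on the minus strand, inside the span of Atcayos, a non-coding gene of the plus strand at chr10:81194609-81210877. Atcayos moved the other way, from 11.1 ± 2.02 to 30.0 ± 2.47 FPKM (SD, n = 3 each, adjusted p = 0.014). The sources used here do not say whether the authors counted by strand, so reads in the overlap of these genes cannot be assigned.

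The list of 18 fast fibre genes had no call, 5 members wholly above the young values, none wholly below, and a median log2 difference of 0.35. Without P311-/- replicate 1, 8 were higher, 1 was lower and the median was 0.46. Actn3, the alpha-actinin of fast fibres, had the smallest p, with 1452, 1405 and 1521 FPKM in young and 1686, 3539 and 3659 FPKM in P311-/- libraries (adjusted p = 0.121). The high values were those of P311-/- replicates 2 and 3, well above every young value. The next smallest p was that of Myoz1, a calcineurin-binding Z-disc protein, at 601 and 825 mean FPKM (adjusted p = 0.156).

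The list of 13 slow fibre genes, which left out Car3, had no call and a median of 0.48 with 12 of 13 above 0. Without P311-/- replicate 1 the median was 0.59, with 3 higher and 1 lower call. Sln, sarcolipin, a small inhibitor of the calcium pump, had 49.1, 39.8 and 39.6 FPKM in young and 170, 134 and 90.05 FPKM in P311-/- libraries (log2 1.58, adjusted p = 0.085). The groups did not overlap, and old wild-type muscle had the highest mean, 278 FPKM. Tpm3, the slow tropomyosin gene, was at 18.8 and 12.8 mean FPKM (adjusted p = 0.121). Myh7, the slow myosin heavy chain, was at 1.14, 0.132 and 0.123 FPKM in young and at 0.883, 3.95 and 7.26 FPKM in P311-/- libraries, so its log2 difference of 2.94 (adjusted p = 0.124) rested on P311-/- replicates 2 and 3.

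The circadian clock genes held 3 calls among 19 tested, and their median log2 difference of 0.80 was the highest of the 48 lists. The clock is a loop in which the proteins of Arntl and Clock switch on the Per and Cry genes, whose proteins then repress them. Nr1d1 and Nr1d2 repress Arntl, and Dbp, Tef and Hlf carry the rhythm to output genes. Arntl and Clock proteins bind E-boxes, the Dbp family binds D-boxes, and the Nr1d and Ror proteins bind ROR elements. With no hour of dissection given, its part in these values was not tested.

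Promoter sequences were examined because members of the loop differed in opposite directions. They are windows of 250 bases before to 50 after the gene start on GRCm38.p6, from RefSeq, and 16 of the clock genes matched, with 21 windows. The E-box CACGTG, searched on both strands, was in 6 of the 21 clock windows, from 5 genes, and in 7.15% of 32851 windows of all genes. The E-box variant CACGTT was in 3 of the 21 clock windows and 4.68% of all windows. The D-box TTATGTAA was in 1 of the 21 clock windows and 0.938% of all windows. Of the ROR half-sites, AGGTCA was in 5 of the 21 clock windows and 16.3% of all windows, and GGGTCA was in none and 13.7%. Windows of Ciart, Per3 and Cry2 are shown with matches to the E-box, its variant and the D-box on either strand in capitals, Ciart for its 3 E-boxes, Per3 for its 2 D-boxes and Cry2 because it was called. All 3 genes are on the minus strand and the sequences read 5′ to 3′ along the gene.
Ciart, chr3:95882179-95882478: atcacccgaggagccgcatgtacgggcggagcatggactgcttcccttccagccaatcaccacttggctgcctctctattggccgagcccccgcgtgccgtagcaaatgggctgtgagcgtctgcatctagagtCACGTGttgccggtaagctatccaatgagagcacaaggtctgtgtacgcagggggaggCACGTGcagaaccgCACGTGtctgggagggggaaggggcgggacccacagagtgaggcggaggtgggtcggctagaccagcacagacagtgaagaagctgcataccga
Per3, chr4:151044616-151044915: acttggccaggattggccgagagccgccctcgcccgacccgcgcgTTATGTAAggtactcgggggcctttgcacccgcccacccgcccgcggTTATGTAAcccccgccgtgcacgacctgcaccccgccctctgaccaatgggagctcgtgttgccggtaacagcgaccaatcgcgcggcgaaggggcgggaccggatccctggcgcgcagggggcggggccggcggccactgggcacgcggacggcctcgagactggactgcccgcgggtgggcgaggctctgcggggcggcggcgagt
Cry2, chr2:92434020-92434319: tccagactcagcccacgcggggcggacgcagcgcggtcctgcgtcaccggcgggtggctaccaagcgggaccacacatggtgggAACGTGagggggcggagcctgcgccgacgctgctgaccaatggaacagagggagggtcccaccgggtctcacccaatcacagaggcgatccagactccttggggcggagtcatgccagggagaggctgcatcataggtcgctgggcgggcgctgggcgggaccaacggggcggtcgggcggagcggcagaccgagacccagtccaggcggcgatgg
The Ciart matches begin 116, 58 and 44 bases before the start, those of Per3 205 and 158 bases before it, and that of Cry2 166 bases before it. The Dbp window and the first Arntl window held none of these 5 motifs. The second Arntl window, which overlaps the first, held 1 AGGTCA half-site, at 31 bases after the start.

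Among the activators, Arntl had 2.69, 3.16 and 3.91 FPKM in young and 1.32, 1.16 and 1.37 FPKM in P311-/- libraries. All P311-/- libraries were below all young ones, and old wild-type muscle had 1.71 ± 0.328 FPKM (SD, n = 3). Arntl fell 2.53-fold (log2 -1.26 ± 0.19 SE, adjusted p = 0.0373). Clock, its partner, was at 3.96 and 3.05 mean FPKM (adjusted p = 0.169), and Npas2, which can replace Clock, at 1.52 and 0.651 (adjusted p = 0.111). Neither overlapped between the groups.

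Among the repressors, Cry2, cryptochrome 2, whose window with its E-box variant is shown above, had 4.04, 3.50 and 3.53 FPKM in young and 5.94, 9.39 and 9.29 FPKM in P311-/- libraries. The groups did not overlap and P311-/- replicate 1 was the lowest of the 3. Cry2 rose 2.22-fold (log2 1.10 ± 0.18 SE, adjusted p = 0.0451), with old wild type at 5.31 FPKM. The Per genes did not reach the threshold: Per1 was at 4.87 and 14.4 mean FPKM (adjusted p = 0.108), Per2 at 1.04 and 2.95 (adjusted p = 0.0588) and Per3 at 2.68 and 5.99 (adjusted p = 0.0775). In each Per gene all 3 P311-/- libraries exceeded all young libraries. Ciart, a repressor of the loop, was at 0.569 and 3.16 mean FPKM, with a log2 difference of 2.38 (adjusted p = 0.0967). Cry1 was at 3.97 and 4.80 mean FPKM and its groups overlapped.

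Among the outputs, Dbp (chr7:45705088-45710203) had 8.27, 6.68 and 4.06 FPKM in young libraries. In the P311-/- libraries it had 25.0, 35.5 and 32.4 FPKM. Each P311-/- library was above every young library, and the old wild-type values were also high and scattered, with a mean of 23.9 ± 9.34 FPKM (SD, n = 3). Dbp rose 4.88-fold against young (log2 2.31 ± 0.33 SE, adjusted p = 0.0308). Between P311-/- and old wild type the log2 difference was 0.44 (adjusted p = 0.521), and between old wild type and young it was 1.88 (adjusted p = 0.0307). The related Tef was at 24.3 and 43.1 mean FPKM (adjusted p = 0.0549) and Hlf at 0.467 and 1.29 (adjusted p = 0.116), both without overlap.

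Over the 19 clock genes, 2 were called higher and 1 lower, against 0.155% and 0.246% of all genes, and 10 lay wholly above and 4 wholly below the young values, against 11.6% and 12.0%. With P311-/- replicate 1 left out, 13 were called higher and 1 lower, the latter Arntl, and the median was 0.98. P311-/- replicate 1 was the closest of its group to young muscle in most of the higher members: Per1 was 6.93, 18.4 and 17.8 FPKM in replicates 1, 2 and 3. Cirbp, a cold-inducible RNA-binding protein known to be rhythmic and not a member of the list, rose from 10.2 ± 0.634 to 17.4 ± 2.07 FPKM (SD, n = 3 each, adjusted p = 0.0387), with old wild type at 12.7 FPKM.

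**Figure D4:**
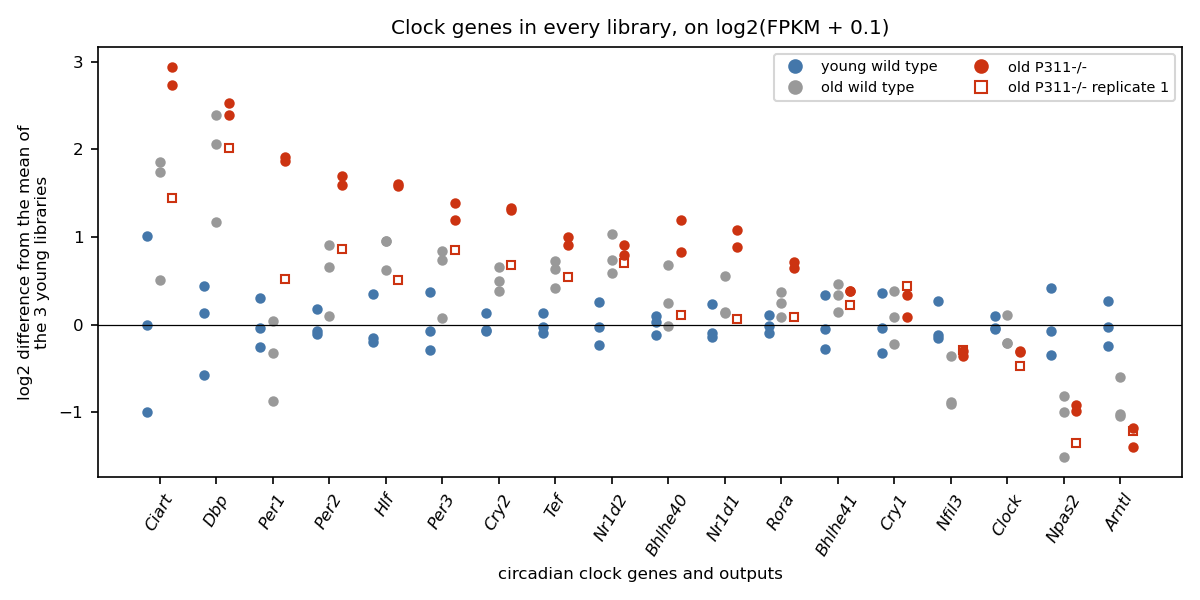
Log2 difference of each library from the mean of the 3 young libraries (y axis) for 18 of the 19 clock genes tested (x axis), on log2(FPKM + 0.1), with young libraries in blue, old wild-type libraries in grey and P311-/- libraries in red. Arntl and Npas2 lie below 0 in all old libraries, and from Ciart to Rora P311-/- replicate 1 (open squares) is below the other 2 P311-/- libraries.

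Genes of the extracellular matrix were lower in P311-/- muscle than in young muscle, and several passed the test. Fewer cells of a type and less RNA per cell cannot be told apart in bulk tissue. Serpinh1, the collagen chaperone HSP47, had 134, 152 and 145 FPKM in young and 73.1, 40.4 and 54.1 FPKM in P311-/- libraries. The groups lay far apart, with P311-/- replicate 1 the nearest to young, and old wild-type muscle had 72.2 ± 11.5 FPKM (SD, n = 3). Serpinh1 fell 2.57-fold (log2 -1.40 ± 0.21 SE, adjusted p = 0.0364). The log2 difference was -1.004 between old wild type and young (adjusted p = 0.035) and -0.40 between P311-/- and old wild type (adjusted p = 0.363).

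Sparc, osteonectin, a secreted protein that binds collagen, had 504, 509 and 529 FPKM in young and 305, 168 and 212 FPKM in P311-/- libraries. The young libraries differed little, and the highest P311-/- library was far below the lowest of them. Sparc fell 2.25-fold (log2 -1.21 ± 0.21 SE, adjusted p = 0.0499), with old wild type at 306 ± 44.2 FPKM (SD, n = 3). Col8a2, a short-chain network collagen, fell from 1.68 ± 0.286 to 0.489 ± 0.018 FPKM (SD, n = 3 each, adjusted p = 0.0496), with old wild type at 0.661 FPKM. Adamts20, a secreted protease that cuts proteoglycans, fell 2.104-fold to 1.69 FPKM, the mean also found in old wild type. Antxr1, a cell surface receptor that binds collagens, fell 1.99-fold, from 11.2 ± 1.41 to 5.64 ± 1.06 FPKM (SD, n = 3 each, adjusted p = 0.0437), and was at 5.83 FPKM in old wild type.

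In the list of 18 genes for collagen folding, trimming and crosslinking, 2 were called lower, Serpinh1 and Sparc, none higher, all 18 were below 0, and 13 lay wholly below the young values. The median was -0.69, and without P311-/- replicate 1 it was -0.80, with 12 lower calls. Of 18 collagen chains none was called, but the list left out Col8a2, which was called lower. All 18 were below 0, 12 lay wholly below the young values, against 12.0% of all genes, and the median was -0.88. Without P311-/- replicate 1 the median was -1.24 and 16 were called lower. Col1a2, a chain of the main fibrillar collagen, had 182, 202 and 185 FPKM in young and 120, 63.1 and 77.0 FPKM in P311-/- libraries (adjusted p = 0.0545). Col1a1, its partner chain, had 384, 457 and 382 FPKM in young and 265, 129 and 164 FPKM in P311-/- libraries (adjusted p = 0.0648). In both genes the groups did not overlap, and P311-/- replicate 1 was above the old wild-type mean, which was 109 FPKM for Col1a2 and 198 FPKM for Col1a1. Col3a1, the collagen of reticular fibres, was at 648 and 323 mean FPKM (adjusted p = 0.0984).

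The list of 24 elastic fibre, glycoprotein and proteoglycan genes had no call and a median of -0.65. Of its members 11 lay wholly below the young values, against 12.0% of all genes. Without P311-/- replicate 1, 15 were called lower and the median was -0.81. Eln, elastin, was at 15.1 and 5.54 mean FPKM (adjusted p = 0.0642), and Fbn1, fibrillin 1, at 42.3 and 21.7 (adjusted p = 0.0729). In 16 fibro-adipogenic progenitor and fibroblast markers none was called, 10 lay wholly below, and the median was -0.54, and -0.58 with 6 lower calls without P311-/- replicate 1. Meox1, a homeobox factor of activated fibroblasts, was at 6.13 and 2.19 mean FPKM (adjusted p = 0.0663), and Cd34, a progenitor surface protein, at 24.6 and 15.5 (adjusted p = 0.0815). Summed FPKM of 6 defining fibroblast markers was 430.5 to 501.3 in young and 321.1 to 485.7 in P311-/- libraries, and the part of cell number in the matrix genes was not tested.

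Tendon genes were also at lower values. Of 11 tenocyte genes none was called and the median was -0.75. Of these, 4 lay wholly below and 1 wholly above the young values, against 12.0% and 11.6% of all genes. In the fit without P311-/- replicate 1, 4 were called lower and the median was again -0.75. Tnmd, tenomodulin, had 18.98, 10.5 and 23.1 FPKM in young and 4.92, 7.61 and 4.99 FPKM in P311-/- libraries (adjusted p = 0.0561), and Cilp2, a cartilage intermediate layer protein, was at 1.86 and 0.361 mean FPKM (adjusted p = 0.0642). Neither gene overlapped between the groups.

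Because P311 is known for its link to TGF-beta, the genes of that pathway were read next. Of 11 ligands and receptors none was called, and the median was 0.05, and 0.09 with 1 higher call without P311-/- replicate 1. Tgfb1 was at 7.05 and 5.96 mean FPKM (adjusted p = 0.581), Tgfb2 at 4.19 and 4.80 (adjusted p = 0.632) and Tgfb3 at 14.1 and 14.5 (adjusted p = 0.907), and all 3 overlapped between the groups. Bmpr1a, a BMP receptor, had the smallest p, at 14.4 and 18.8 mean FPKM (adjusted p = 0.123), followed by Tgfbr2, the ligand-binding TGF-beta receptor, at 21.2 and 15.02 (adjusted p = 0.169). Of 14 SMADs, latency proteins and targets none was called and the median was 0.00, and without that library it was 0.04, again with no call. Ski, a SMAD co-repressor, was at 15.8 and 13.4 mean FPKM (adjusted p = 0.244), and Ltbp2, a microfibril protein, at 0.801 and 0.407 (adjusted p = 0.29). Klf10, the TGF-beta-inducible early gene, stood outside these lists and was called: it had 12.8, 13.2 and 12.4 FPKM in young and 5.18, 6.97 and 5.92 FPKM in P311-/- libraries (log2 -1.09 ± 0.14 SE, adjusted p = 0.0178). Its groups were well separated, and old wild-type muscle was at 10.4 ± 1.19 FPKM (SD, n = 3).

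Actb, the beta-actin of non-muscle cells, was among the genes called lower. It had 253, 279 and 318 FPKM in young and 148, 107 and 110 FPKM in P311-/- libraries. No P311-/- library came near the lowest young library, and old wild-type muscle was between them at 188 ± 15.9 FPKM (SD, n = 3). Actb fell 2.33-fold (log2 -1.23 ± 0.16 SE, adjusted p = 0.0211). Anxa2, annexin A2, which binds membranes to actin, fell 2.03-fold to 24.3 FPKM (adjusted p = 0.0413), Dpysl3, a microtubule-associated protein of growing cells, fell 2.42-fold to 4.68 FPKM (adjusted p = 0.0302), and Rftn1, a lipid raft protein, fell 2.04-fold to 3.99 FPKM (adjusted p = 0.0499). Prex1, an activator of the GTPase Rac, fell 1.82-fold to 2.98 FPKM (adjusted p = 0.0393). Sash1, a signalling scaffold, fell 1.91-fold, and Tnfaip2, a TNF-induced protein of membrane protrusions, also fell 1.91-fold. In old wild-type muscle Dpysl3 was at 5.12, Prex1 at 3.21 and Sash1 at 5.20 FPKM, each within 1 SD of the P311-/- mean, and Anxa2 was at 31.1, Rftn1 at 5.74 and Tnfaip2 at 18.9 FPKM.

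Tfrc, the transferrin receptor, through which cells take up iron, had 106, 97.8 and 95.1 FPKM in young and 54.9, 41.7 and 32.8 FPKM in P311-/- libraries. The groups were separated by a wide gap, and old wild-type muscle was near the young level at 89.3 ± 8.89 FPKM (SD, n = 3). Tfrc fell 2.31-fold (log2 -1.24 ± 0.18 SE, adjusted p = 0.033). Its log2 difference was -1.08 from old wild type (adjusted p = 0.133). It was the only call among 26 iron, metallothionein and antioxidant genes, whose median was 0.08, and 0.01 without P311-/- replicate 1, with 5 higher and 4 lower calls.

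Btaf1, which strips the TATA-binding protein from promoters, had 7.31, 6.36 and 7.28 FPKM in young and 3.16, 2.58 and 2.56 FPKM in P311-/- libraries. The groups were narrow and far apart, and the old wild-type mean was 5.97 ± 0.644 FPKM (SD, n = 3). Btaf1 fell by 1.31 ± 0.14 (SE) on the log2 scale (adjusted p = 0.00697), and by 1.08 against old wild type (adjusted p = 0.0244). Ide, the insulin-degrading enzyme, lies on the same chromosome 19, with 255990 bases between the genes, and fell 1.78-fold from 51.1 ± 4.499 to 28.7 ± 4.21 FPKM (SD, n = 3 each, adjusted p = 0.0479), with old wild type at 50.1 FPKM. Dnmt3a, a de novo DNA methyltransferase, fell 1.90-fold to 4.16 FPKM and was at 4.27 FPKM in old wild type. Shox2, a homeobox factor, fell 2.13-fold to 1.33 FPKM and was at 1.19 FPKM in old wild type.

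Jun, a subunit of the AP-1 factor, had 22.9, 22.8 and 22.1 FPKM in young and 47.1, 39.0 and 42.5 FPKM in P311-/- libraries. The young libraries were almost equal and all P311-/- libraries were well above them, with old wild type at 33.7 ± 2.75 FPKM (SD, n = 3). Jun rose by 0.92 ± 0.12 (SE) on the log2 scale (adjusted p = 0.0178). It was the only call among 21 immediate early genes, whose median was -0.28. With P311-/- replicate 1 left out, 2 of the list were called higher and 5 lower, and the median was -0.38. Other members had values on the other side from Jun, a log2 difference of -1.51 for Fosb (adjusted p = 0.165), -1.09 for Egr1 (adjusted p = 0.211) and -1.03 for Fos (adjusted p = 0.366), none of them called.

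Wnt4, a secreted Wnt ligand, had 1.417, 1.14 and 1.57 FPKM in young and 2.98, 9.26 and 7.20 FPKM in P311-/- libraries. P311-/- replicate 1 was closer to the young values than to the other P311-/- values. Wnt4 rose 4.71-fold (log2 2.02 ± 0.34 SE, adjusted p = 0.0496), with old wild type at 2.91 ± 0.208 FPKM (SD, n = 3). Hsd11b1, which regenerates active glucocorticoid inside cells, had 1.30, 1.28 and 1.45 FPKM in young and 2.69, 2.79 and 2.93 FPKM in P311-/- libraries. The groups were tight, and old wild-type muscle was higher still at 3.58 FPKM. Hsd11b1 rose 2.08-fold (adjusted p = 0.0496).

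Other named calls were spread over several functions. Sh3rf2, a ubiquitin ligase of stress kinase signalling, rose 4.75-fold from 2.39 ± 0.982 to 11.3 ± 3.96 FPKM (SD, n = 3 each, adjusted p = 0.0302). Ctxn3, a small membrane protein, rose 3.75-fold to 35.0 ± 11.8 FPKM (SD, n = 3, adjusted p = 0.0496). In both, P311-/- replicate 1 was the lowest of its group and old wild type lay between, at 5.82 and 21.9 FPKM. Wdfy1, an endosomal adaptor, rose 2.61-fold from 1.74 to 4.54 FPKM (adjusted p = 0.0178) with old wild type near young at 1.96 FPKM. Rab4a, a GTPase of endosome recycling, rose 1.90-fold (adjusted p = 0.0451), with old wild type at 8.68 FPKM.

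Among lower calls, Sgms2, a sphingomyelin synthase, fell 3.19-fold to 0.450 FPKM (adjusted p = 0.0496) and Pnpla3, a lipase-like enzyme of lipid droplets, fell 2.39-fold to 1.86 FPKM (adjusted p = 0.0292), with old wild type at 0.790 and 2.45 FPKM. Rbp7, a cellular retinol-binding protein, had 2.39, 2.33 and 2.19 FPKM in young and 1.03, 1.09 and 1.01 FPKM in P311-/- libraries. Both groups were narrow, old wild type was at 2.52 FPKM, and the adjusted p was 0.0308 against young and 0.031 against old wild type. Slc38a4, an amino acid transporter, fell 1.97-fold (adjusted p = 0.0259) and was at 18.5 FPKM in old wild type, and Sec14l5 fell 2.05-fold (adjusted p = 0.0308). Creld2, a protein of the endoplasmic reticulum stress response, fell 1.72-fold, Lynx1, a modulator of acetylcholine receptors, 1.68-fold and Abcc5, a cyclic nucleotide exporter, 1.56-fold, the last to 9.66 FPKM beside 9.68 FPKM in old wild type. Irx3os, the antisense gene of Irx3, fell 4.52-fold from 1.34 to 0.297 FPKM (adjusted p = 0.0395), while Irx3 itself was at 2.13 and 2.62 mean FPKM.

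Part of the calls were pseudogenes, unnamed or non-coding genes, for which reads can be shared with a close copy. Gm28438, an unprocessed pseudogene on chromosome 1, had 19.9, 13.3 and 15.7 FPKM in young and 127, 244 and 170 FPKM in P311-/- libraries (adjusted p = 0.00697). The mean was 11.1-fold higher in P311-/- than in young muscle, and old wild type was at 97.7 ± 42.4 FPKM (SD, n = 3). In the GENCODE M21 transcripts, 99% of the 31-base words of Gm28438 also occurred in mt-Nd3, a complex I subunit gene of the mitochondrial genome. mt-Nd3 had 78.9, 92.0 and 245 FPKM in young and 44.5, 51.3 and 28.8 FPKM in P311-/- libraries (adjusted p = 0.207). The summed FPKM of the pair was 98.83 to 260.4 in young and 171.2 to 295.5 in P311-/- libraries, which overlapped. Gm28438 made up 6.03% to 20.1% of that sum in young, 74.0% to 85.5% in P311-/- libraries, and 8.20% to 25.2% in old wild-type libraries.

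The mitochondrial tRNA genes on either side of mt-Nd3 were the lowest calls. mt-Tg, for glycine (MT:9391-9458), had 21.4, 70.4 and 29.0 FPKM in young and 0.516, 0 and 0.487 FPKM in P311-/- libraries, from 22, 80 and 39 reads against 1, 0 and 1. mt-Tr, for arginine (MT:9808-9875), had 25, 39 and 45 reads in young and 3, 1 and 13 in P311-/- libraries, an adjusted p of 0.0388. Both were at young levels or above in old wild-type muscle, with 53.6 FPKM for mt-Tg and 40.0 FPKM for mt-Tr. The genes beyond them on the mitochondrial genome, mt-Co3 and mt-Nd4l, had log2 differences of 0.9985 (adjusted p = 0.283) and 0.42 (adjusted p = 0.782). Of the 22 mitochondrial tRNA genes, 16 were tested, these 2 were called, and the median was 0.47. Their log2 differences ran from -6.739 to 5.09, and the gene at 5.09 was not called. Both tRNA genes are 68 bases long. The sources used here do not say how the authors assigned reads that match both the mitochondrial genome and its chromosome 1 copy, so the values of mt-Nd3 and Gm28438 are uncertain.

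On chromosome 5, 3 neighbouring genes were called in different directions. Gm15446 (chr5:109923400-109943936) had 98, 82 and 142 reads in young and 13, 4 and 4 in P311-/- libraries, the smallest adjusted p of all genes at 0.0029. Gm26808, which overlaps its start on the other strand, rose from 0.585 ± 0.217 to 2.86 ± 0.756 FPKM (SD, n = 3 each, adjusted p = 0.0388). 1010001B22Rik, with 51574 bases between it and Gm15446, had 8, 5 and 8 reads in young and 0 in all 3 P311-/- libraries, which is at least 3.31-fold lower when each P311-/- library is set to a floor of 3 reads. Gm15446 and 1010001B22Rik were also present in old wild-type muscle, at 3.31 and 1.01 FPKM. Close copies exist: 39.7% of the words of Gm15446 occurred in Zfp932, and 42.0% of those of Gm26808 in 1010001B22Rik. Zfp932 itself was at 2.40 and 3.16 mean FPKM (adjusted p = 0.277).

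Tmem181b-ps, a transcribed pseudogene, had 1.14, 1.46 and 1.34 FPKM in young and 4.27, 4.49 and 4.34 FPKM in P311-/- libraries. Both groups were narrow, old wild type was at 1.49 ± 0.118 FPKM (SD, n = 3), and the adjusted p was 0.00404 against young and 0.00516 against old wild type. It shared 52.6% of its words with Tmem181a, which was at 2.26 and 2.08 mean FPKM. Gm12751 shared 100% of its words with Polr1d and rose 1.52-fold, while Polr1d was at 16.9 and 16.2 mean FPKM. Gm9385, of which 93.0% of words were in Rpl24, rose 2.19-fold. The other non-coding or unnamed calls were 2700069I18Rik, Gm3793 and 1700096K18Rik, which were higher, and Gm15948, which was lower.

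Among lists of fibre metabolism and protein breakdown, the constitutive proteasome subunits were the most uniform. None of 31 was called, but all 31 had a log2 difference above 0, from 0.15 for Psma3 to 0.66 for Psmd2, with a median of 0.47, and 26 lay wholly above the young values. Without P311-/- replicate 1, 20 were called higher and the median was 0.50. Psmd12, a lid subunit, had 30.5, 28.4 and 27.6 FPKM in young and 40.9, 47.9 and 41.6 FPKM in P311-/- libraries (adjusted p = 0.0549), and Psmb7, a catalytic subunit, was at 28.8 and 42.0 mean FPKM (adjusted p = 0.0805). Old wild-type muscle was at the P311-/- level, 44.6 FPKM for Psmd12 and 45.4 FPKM for Psmb7, and the median of the list between old wild type and young was 0.51.

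Of 21 atrophy ligases, FOXO factors and autophagy genes none was called, 6 lay wholly above and none below, and the median was 0.42. With P311-/- replicate 1 left out, 13 were called higher and the median was 0.58. Klf15, a glucocorticoid-induced factor of muscle metabolism, had 6.60, 6.39 and 5.15 FPKM in young and 8.39, 19.3 and 19.2 FPKM in P311-/- libraries (adjusted p = 0.0804), and Pink1, the kinase that marks damaged mitochondria, had 121, 111 and 102 FPKM in young and 131, 340 and 328 FPKM in P311-/- libraries (adjusted p = 0.118). In both, replicates 2 and 3 were far above replicate 1. Fbxo32 and Trim63, the ubiquitin ligases atrogin-1 and MuRF1, were at 21.6 and 44.9 mean FPKM (adjusted p = 0.264) and at 39.5 and 62.9 (adjusted p = 0.266). Among 17 glucocorticoid-responsive genes Hsd11b1 was called, 5 lay wholly above, the median was 0.60, and without P311-/- replicate 1 it was 0.89 with 13 higher calls. Several members of this list are also clock or atrophy genes, among them Per1 and Klf15.

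Of 28 genes of fatty acid uptake and oxidation none was called and 6 lay wholly above the young values, against 11.6% of all genes. The median was 0.30, and 0.49 with 13 higher calls without P311-/- replicate 1. Cd36, the fatty acid transporter, had 44.2, 43.4 and 55.1 FPKM in young and 75.1, 112 and 85.4 FPKM in P311-/- libraries (adjusted p = 0.0561), and Echs1, an enzyme of beta-oxidation, was at 9.12 and 15.01 mean FPKM (adjusted p = 0.121). Of 22 glycolysis and glycogen enzymes none was called and the median was 0.16. It was 0.33 without P311-/- replicate 1, where 8 were called higher and 1 lower. The smallest p was that of Hk1, hexokinase 1, at 3.49 and 2.32 mean FPKM (adjusted p = 0.153), followed by Gbe1, the glycogen branching enzyme, at 13.9 and 19.4 (adjusted p = 0.228). Respiratory chain lists stood near the median of all genes, 0.14 for 37 complex I subunits and 0.10 for 41 nuclear subunits of complexes II to V, with no call. Without that library the medians were 0.15 with 3 higher calls and 0.07 with 1 higher and 1 lower, where 10.3% of all genes were called higher and 9.22% lower. Between old wild type and young the medians were 0.53 and 0.39. Their smallest p values were those of Ndufs3 (adjusted p = 0.139), Ndufc2 (adjusted p = 0.238), Cox6a1 (adjusted p = 0.296) and Cox6a2 (adjusted p = 0.346). The 13 mitochondrially encoded protein genes had a median of 0.50 and no call (0.66 and 2 higher calls without P311-/- replicate 1), against 0.83 between old wild type and young, and mt-Co2 had the smallest p (log2 1.36, adjusted p = 0.13).

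Ribosomal protein lists also had no call. Of 78 cytosolic genes 16 lay wholly above the young values and 1 below, with a median of 0.17, led by Rps20 (adjusted p = 0.119) and Rpl22 (adjusted p = 0.135). Of 76 mitochondrial ones 12 lay above and 2 below, with a median of 0.14, led by Mrpl57 (adjusted p = 0.0779) and Mrpl32 (adjusted p = 0.132). The counts without overlap above the young values, 16 of 78 cytosolic and 12 of 76 mitochondrial ones, stood beside 11.6% of all genes. Leaving out P311-/- replicate 1 gave medians of 0.11 with 2 higher calls for the cytosolic genes and 0.15 with 3 higher and 1 lower for the mitochondrial ones. Between old wild type and young the medians were 0.42 and 0.29. Heat shock proteins and chaperones, 18 genes, had 6 members wholly below the young values, against 12.0% of all genes. Their median was -0.12 (-0.10 without that library, with 2 higher and 4 lower calls). Hsp90aa1, a cytosolic chaperone, was at 29.2 and 18.3 mean FPKM (adjusted p = 0.0891). Pdia4, a disulfide isomerase, was at 18.4 and 11.1 (adjusted p = 0.124).

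**Figure D5:**
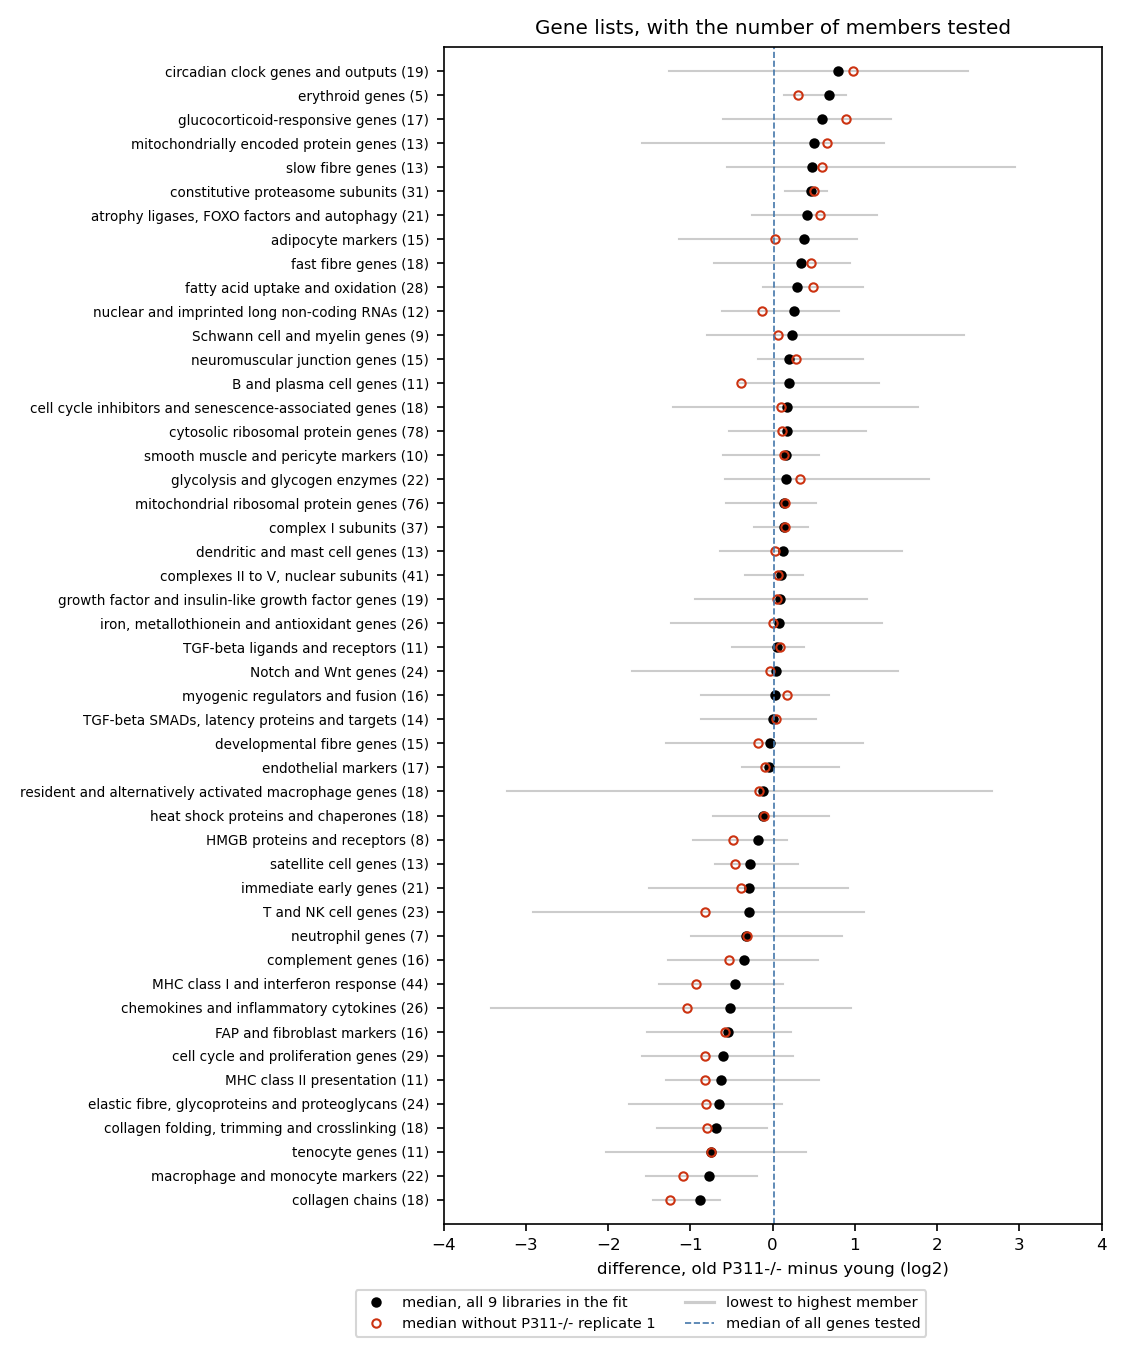
Log2 difference of old P311-/- minus young (x axis) for 48 gene lists (y axis, number of members tested in brackets): median of each list (black), median without P311-/- replicate 1 (open red) and the range of members (grey line), with the median of all genes as a dashed line. Clock, erythroid, glucocorticoid, mitochondrially encoded, slow fibre and proteasome lists lie furthest to the right, and collagen chain, macrophage and tenocyte lists furthest to the left. Leaving out replicate 1 moves most immune lists further left.

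Of immune genes on the lists none was called with all libraries. Macrophage and monocyte markers had a median of -0.77, all 22 were below 0 and 8 lay wholly below the young values, and without P311-/- replicate 1 the median was -1.09 with 13 lower calls. Adgre1, the F4/80 macrophage antigen, had 27.6, 37.9 and 55.6 FPKM in young and 20.9, 9.59 and 11.5 FPKM in P311-/- libraries (adjusted p = 0.0624), with old wild type at 22.2 FPKM. P311-/- replicate 1 was near the old wild-type mean and the other 2 were lower. Cybb, a subunit of the phagocyte oxidase, was at 13.2 and 7.66 mean FPKM (adjusted p = 0.121). Resident and alternatively activated macrophage genes had a median of -0.11 over 18 genes (-0.17 without that library, with 2 higher and 2 lower calls), with Cd5l, a secreted macrophage protein, at 4.28 and 0.427 mean FPKM (adjusted p = 0.0549) and Mgl2, a C-type lectin, at 4.10 and 7.11 (adjusted p = 0.0805). Summed FPKM of 6 defining macrophage markers was 1051 to 1726 in young and 498.3 to 1167 in P311-/- libraries.

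Antigen presentation and interferon genes had values on the same side. Of 44 MHC class I and interferon genes 41 were below 0 and the median was -0.46, while 4 lay wholly below the young values, a smaller share than the 12.0% of all genes. The median was -0.94 without P311-/- replicate 1, where 29 were called lower. H2-D1 and H2-K1, class I heavy chains, were at 236 and 144 mean FPKM (adjusted p = 0.123) and at 173 and 109 (adjusted p = 0.123). The 11 MHC class II genes had a median of -0.63, and -0.83 with 8 lower calls without that library. H2-Eb1 and Cd74, a class II chain and the invariant chain, were at 261 and 153 (adjusted p = 0.12) and at 617 and 409 mean FPKM (adjusted p = 0.136). In these 4 genes P311-/- replicate 1 was the highest of its group and still below every young library.

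Of 26 chemokines and inflammatory cytokines the median was -0.52, and it was -1.05 without P311-/- replicate 1, with 8 lower calls. Il1b, interleukin 1 beta, had 1.73, 3.80 and 3.79 FPKM in young and 1.08, 0.088 and 0 FPKM in P311-/- libraries (adjusted p = 0.0796). Its P311-/- values were all below the young ones but at very low levels. Il18 was at 4.67 and 2.43 mean FPKM (adjusted p = 0.112). Complement genes had a median of -0.35 (-0.53 with 5 lower calls without that library), with Cfp, properdin, at 38.0 and 14.9 mean FPKM (adjusted p = 0.125) and C3ar1, a complement receptor, at 13.01 and 7.09 (adjusted p = 0.162). The 7 neutrophil genes had a median of -0.32 with and without it, and 1 lower call without it. Csf3r was at 4.23 and 2.13 (adjusted p = 0.114) and S100a8 at 2.85 and 5.70 mean FPKM (adjusted p = 0.25).

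Lymphocyte genes depended on P311-/- replicate 1. T and NK cell genes, 23 in number, had a median of -0.29 with all libraries and -0.83 with 5 lower calls without it, and their summed FPKM was 38.23 to 39.44 in young against 65.99, 16.48 and 22.51 in the P311-/- libraries. Klra7 and Klra8, Ly49 receptors of NK cells whose copies are closely alike, were at 1.22 and 0.564 mean FPKM (adjusted p = 0.0801) and at 1.99 and 0.256 (adjusted p = 0.0913). B and plasma cell genes changed the sign of their median, 0.20 with all libraries and -0.39 without replicate 1, neither with a call, and summed FPKM of 5 defining markers reached 18.13 in P311-/- muscle against 3.084 to 4.843 in young. The 2 genes of the smallest p there were Xbp1, at 21.8 and 25.1 mean FPKM (adjusted p = 0.297), and Ighg2c, at 1.66 and 3.41 (adjusted p = 0.336). Of 13 dendritic and mast cell genes 6 lay wholly above the young values, and without that library the median moved from 0.13 to 0.03, with 2 higher calls and 1 lower. Tpsb2, a mast cell tryptase, had 8.49, 9.24 and 9.13 FPKM in young and 19.6, 19.9 and 27.7 FPKM in P311-/- libraries (adjusted p = 0.0581), and Mcpt4, a chymase, was at 15.1 and 29.8 mean FPKM (adjusted p = 0.09). Summed FPKM of 5 defining mast cell markers was 28.05 to 48.41 in young, 55.95 to 95.19 in P311-/- and 62.70 to 91.30 in old wild-type libraries.

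Genes of muscle stem cells and new fibres had no call with all libraries. Of 13 satellite cell genes none was called and the median was -0.27. It was -0.46 without P311-/- replicate 1, where 4 were called lower. The smallest p were those of Sdc4, a syndecan of satellite cells, at 15.1 and 9.49 mean FPKM (adjusted p = 0.0785) and Heyl, a Notch target, at 3.15 and 2.21 (adjusted p = 0.192). Pax7, which defines satellite cells, had 1.51, 1.48 and 1.07 FPKM in young and 1.41, 0.802 and 0.9996 FPKM in P311-/- libraries (adjusted p = 0.448). Its ranges overlapped. Of 16 myogenic regulators and fusion genes the median was 0.03, and 0.18 with 5 higher calls without that library, with Myf6, a late myogenic factor, at 60.6 and 99.7 (adjusted p = 0.135) and Des, desmin, at 878 and 1301 mean FPKM (adjusted p = 0.145). Myod1, which commits cells to muscle, was at 28.3 and 25.0 mean FPKM (adjusted p = 0.628) and Myog, myogenin, at 35.0 and 28.2 (adjusted p = 0.612). The 15 developmental fibre genes had a median of -0.04, and -0.18 with 2 lower calls without that library. The developmental myosins Myh3 and Myh8 were at 28.4 and 27.6 (adjusted p = 0.972) and at 29.8 and 27.4 mean FPKM (adjusted p = 0.866). Actc1, the cardiac actin made by new fibres, had 644, 794 and 631 FPKM in young and 850, 189 and 198 FPKM in P311-/- libraries (adjusted p = 0.241), so P311-/- replicate 1 stood above the young range and the other 2 far below it. Chrna1, an acetylcholine receptor subunit, was at 13.4 and 29.1 mean FPKM (adjusted p = 0.13), and Ache, acetylcholinesterase, at 11.4 and 14.7 (adjusted p = 0.215), in a list of 15 neuromuscular junction genes with a median of 0.20, and 0.29 and no call without P311-/- replicate 1.

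Cell cycle genes had a median of -0.61 over 29 genes, with 25 below 0 and 5 wholly below the young values, against 12.0% of all genes. Without P311-/- replicate 1, 18 were called lower and the median was -0.83. Aurka, a mitotic kinase, was at 2.43 and 1.34 mean FPKM (adjusted p = 0.0779) and Ccnd1, cyclin D1, at 4.79 and 2.75 (adjusted p = 0.123). Of 18 cell cycle inhibitors and senescence-associated genes none was called and the median was 0.18, and 0.10 with 2 higher and 2 lower calls without that library. Gadd45a, a stress-induced growth arrest gene, had 9.21, 9.84 and 8.75 FPKM in young and 20.1, 42.8 and 37.3 FPKM in P311-/- libraries (adjusted p = 0.0631), and the groups were widely separated. Mmp3, a matrix metalloproteinase, was at 14.9 and 22.4 mean FPKM (adjusted p = 0.121). Cdkn1a was at 14.7 and 23.9 mean FPKM (adjusted p = 0.206) and Cdkn2a, at very low levels, at 0.656 and 0.2204 (adjusted p = 0.213).

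Of 19 growth factor genes none was called and the median was 0.09, and 0.06 with 1 higher and 2 lower calls without P311-/- replicate 1. Mstn, myostatin, the muscle-made inhibitor of muscle growth, had 7.57, 3.89 and 6.55 FPKM in young and 10.01, 16.6 and 12.9 FPKM in P311-/- libraries (adjusted p = 0.0769), with old wild type at 13.7 FPKM. Fstl1, a secreted follistatin-like protein, was at 132 and 69.6 mean FPKM (adjusted p = 0.0805). Of 24 Notch and Wnt genes none was called, but the list left out Wnt4, which was called higher. The list median was 0.04, and -0.04 with 1 higher and 3 lower calls without that library. Sfrp2, a secreted Wnt modulator, was at 19.4 and 5.73 (adjusted p = 0.0775) and Notch2 at 5.55 and 3.65 mean FPKM (adjusted p = 0.0998). Hmgb1, a chromatin protein released by damaged cells, had 10.8, 9.43 and 9.39 FPKM in young and 5.84, 6.22 and 5.72 FPKM in P311-/- libraries (adjusted p = 0.0518). The P311-/- libraries were all below the young ones, and old wild-type muscle was above both at 16.9 FPKM. Tlr2, one of its receptors, was at 7.09 and 3.64 mean FPKM (adjusted p = 0.104), and the 8 genes of their list had a median of -0.18, and -0.48 with 4 lower calls without that library.

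The remaining lists had no call with all libraries. Leaving out P311-/- replicate 1 gave 2 higher calls among 17 endothelial genes, 1 higher and 1 lower among 10 smooth muscle and pericyte genes, 3 higher among 15 adipocyte genes, 1 higher and 1 lower among 9 Schwann cell genes, 1 higher among 12 nuclear and imprinted RNAs and none among 5 erythroid genes. In that fit 10.3% of all genes tested were called higher and 9.22% lower. Among vascular genes, Aqp1, a water channel, was at 44.6 and 81.7 mean FPKM (adjusted p = 0.137), Sox17 at 1.69 and 2.36 (adjusted p = 0.15), and the pericyte proteoglycan Cspg4 at 1.70 and 1.34 (adjusted p = 0.337). Among adipocyte genes, Dgat2, which makes triglyceride, had 5.76, 4.70 and 3.96 FPKM in young and 8.04, 9.31 and 10.1 FPKM in P311-/- libraries (adjusted p = 0.0531), and Cidea was at 1.72 and 0.746 mean FPKM (adjusted p = 0.123). Of Schwann cell genes, Prx, periaxin, was at 0.414 and 0.931 mean FPKM (adjusted p = 0.26). The 5 erythroid genes had a median log2 difference of 0.69, and 0.31 without P311-/- replicate 1. Of the 6 libraries compared, Hbb-bs was highest in P311-/- replicate 1: the P311-/- libraries had 512, 166 and 186 FPKM, against 105, 185 and 126 FPKM in young (adjusted p = 0.45), and Hbb-bt was at 12.9 and 23.9 mean FPKM (adjusted p = 0.55). Of nuclear and imprinted RNAs, Malat1 was at 182 and 120 mean FPKM (adjusted p = 0.2) and Snhg14 at 0.233 and 0.472 (adjusted p = 0.229).

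With library sizes set by total reads in place of the authors' scaling, the median log2 difference over all genes moved from 0.01 to -0.13, and the medians of 9 lists near 0 changed sign, namely both TGF-beta lists, the myogenic list, complex I, complexes II to V, the mitochondrial ribosomal genes and the growth factor, Notch and Wnt, and iron lists. With upper-quartile scaling the list of SMADs, latency proteins and targets changed sign, and no other list did. The medians of the clock, collagen, proteasome and macrophage lists kept their sign under both scalings.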

How the data were processed

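The authors deposited 1 table of FPKM for 54532 genes in 9 libraries, with gene lengths in bases, used as given. HISAT2 2.2.1, featureCounts 2.1.1, DESeq2 1.42.0 and mm39 are listed per the submitters' processing notes; the sources used here give neither options nor strand use. The deposited coordinates were those of GRCm38 (98.3% of shared identifiers in GENCODE M21 had the same position), and positions are given there.

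Whole reads came back from FPKM, gene length and 1 library constant for 100% of values, within a tolerance of 0.001. These recovered reads served for depth, filters, other scalings and voom. log2(FPKM + 0.1) of 14233 genes was fitted in all 9 libraries with limma 3.58.1 in R 4.3.3 (trend and robust moderation, two-sided, Benjamini-Hochberg over all genes tested, no replicate block), and log2 differences are on that scale, which understates those of low genes.

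The members and the 48 lists were chosen with earlier results of these data known. Named genes were Nrep, the called genes of established symbol and at least 2 FPKM with the largest differences, called members of lists, the 2 smallest p in lists without a call, and a fixed set of myogenic, collagen, TGF-beta and other genes; the other genes were named after their values were seen. Word sharing used 31-base words of GENCODE M21 transcripts, either strand. The comparison of old P311-/- with old wild type is given only as values beside the genes and the matrix lists. Some items the rule named are not reported here.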

Additional observations from a re-analysis of the deposited data

How the results depend on the processing

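The count of genes called between old P311-/- and young muscle, 57 with all libraries, was 12 in a fit of the 6 libraries alone (11 of them among the 57), 23 with no filter, 34 with total-count scaling (29 of the 57, 10 higher and 24 lower), 87 with a pseudocount of 1, 139 with voom on recovered reads, 3173 with library quality weights and 4422 with voom and those weights, which weighted P311-/- replicate 1 at 0.27 and 0.213. With upper-quartile scaling it was 64, with 53 of the 57. With a replicate block it was 5, all among the 57; the numbers did not pair the libraries, since same-numbered young and P311-/- libraries deviated together with correlations of -0.0217, -0.0514 and 0.0245. Without 1 library the count ranged from 4 to 2785: it was 2785, 10 and 8 without P311-/- replicate 1, 2 and 3, 15, 10 and 4 without young replicate 1, 2 and 3, and 37, 11 and 21 without old wild-type replicate 1, 2 and 3. The cause was not tested. Nrep was called under every setting, and no result changed its direction past the threshold. With 3 libraries a group and 39 of 57 calls above an adjusted p of 0.03, a gene not called here is not shown to be unchanged.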
